A study of Homo sapiens with 6 samples.

Results

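The genes described here encode the nuclear part of the mitochondrial respiratory chain and the ATP synthase. They were chosen by name: every symbol that begins as the gene families of complex I (NDUFA, NDUFB, NDUFC, NDUFS or NDUFV followed by a digit), complex II (SDHA to SDHD), complex III (UQCR), complex IV (COX4 to COX8) or complex V (ATP5) was taken, and a gene was kept when it reached 1 RPKM in any of 6 RNA-seq libraries. Of 23204 symbols measured, 91 had such a name and 82 were kept, as 37 genes for complex I, 4 for complex II, 10 for complex III, 12 for complex IV and 19 for complex V. The rule uses names and level and no difference between libraries, though it was set with earlier results of these data known. For 74 of the 82 the name is that of a subunit. The other 8 were carried along by their names and are described near the end: UQCRBP1, UQCRHL, ATP5EP2, ATP5S, ATP5SL, ATP5J2-PTCD1, COX4NB and COX7A2L.

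The study asked what medulloblastoma-associated changes in DDX3X, a DEAD-box RNA helicase that acts in translation and collects in stress granules, do to cells. All 6 libraries came from HEK293T, a human line derived from embryonic kidney and carrying SV40 large T antigen. For the siRNA pair, the cells received either control siRNA or DDX3X siRNA for 48 h, with no sorting described. For the plasmid libraries, the cells received 5 µg of plasmid for 32 h, carrying GFP alone or DDX3X joined to GFP, as the wild type (WT) or as the mutant T275M or G302V, and GFP-positive cells were collected by flow sorting. These cells still had their own DDX3X, and its row sums the cellular and the plasmid transcript. Each of the 6 groups held 1 library, so no difference below has a replicate check and none carries a p-value. The intervals given are 95% intervals for the counting of reads only. The siRNA and plasmid libraries differ in agent, time and sorting together, and these cannot be told apart.

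The respiratory chain sits in the inner mitochondrial membrane. Complex I takes electrons from NADH and complex II from succinate, complex III passes them to cytochrome c, and complex IV hands them to oxygen. The protons moved across the membrane on the way drive the rotary ATP synthase, complex V. A small set of core subunits is encoded by mitochondrial DNA, whose genes were not analysed here, and the rest are nuclear genes whose mRNAs are translated outside the mitochondrion. Many promoters of these nuclear genes are known to carry sites for NRF1, GABP (an ETS-family factor, also called NRF2), YY1 and the estrogen-related receptors.

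Library depth ran from 43720000 reads in G302V to 180870000 reads in DDX3X siRNA, as recovered from the smallest step between values. DDX3X itself was at 107 RPKM in control siRNA, 31.3 in DDX3X siRNA, 119 in GFP, 2894 in WT, 3279 in T275M and 1906 in G302V, so DDX3X moved as each label gives, though these levels do not tell the constructs apart. RPKM is the number of reads per kilobase of transcript and per 1000000 reads, so levels can be compared between genes. The labels call the cells neuronal. Of 12 neuronal markers 7 reached 1 RPKM in some library, led by the neurofilament genes NEFM and NEFL, and 5 stayed below 1 RPKM in every library, with 1 of them at 0 throughout. The neuronal markers tested also differed between plasmid libraries, by the limit of 0.32 on the log2 scale defined below. Against GFP, 2 were lower and 3 higher of 7 in WT, where 1.5% and 9.6% of all genes were. In T275M 1 was lower and 3 higher of 6 (3.08% and 12.5% of all genes). In G302V 0 were lower and 2 higher of 5 (3.18% and 8.55% of all genes). NEFM was at -0.41 in WT, and SNAP25, at 0.115 RPKM in GFP and 1.38 in WT, at 1.09. The part of these markers in the members' differences was not tested. For kidney epithelium 1 of 8 markers reached 1 RPKM, for blood 0 of 3 and for fibroblasts 2 of 3.

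Promoter sequence was read from RefSeq (GRCh38.p14, from 250 bases before to 50 bases after each start site), which held 62 of the 74 subunit genes. Both strands were searched. The exact NRF1 palindrome, spelled out in the windows shown next, was found in 4 of 62 subunit promoters (6.45%) against 1.75% of 15843 promoters of coding genes. With the base before its centre free, a search that includes the exact matches, it was found in 15 (24.2% against 8.58%). The ETS core CCGGAAG was in 19 (30.6% against 14.2%), the YY1 word, also spelled out in the windows, in 4 (6.45% against 1.37%) and the estrogen-related receptor word AAGGTCA in 8 (12.9% against 3.13%). Among the 9823 promoters of genes expressed here the shares were 2.41%, 12.3%, 19.9%, 2.16% and 2.33% in the same order. By complex, the ETS core was in 5 of 9 promoters of complex IV, 3 of 7 of complex III, 2 of 3 of complex II, 4 of 11 of complex V and 5 of 32 of complex I. The free form of the NRF1 word was in 0 of 9 promoters of complex IV, 4 of 7 of complex III, 2 of 3 of complex II, 3 of 11 of complex V and 6 of 32 of complex I. A match describes the letters only.

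The exact NRF1 palindrome is shown first, in the 4 promoters that hold it, each window being 30 bases read 5′ to 3′ on the gene's strand with the matched letters in capitals.
ATP5C1, chr10:7788145-7788174, plus strand: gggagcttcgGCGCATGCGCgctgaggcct
NDUFA8, chr9:122159764-122159793, minus strand: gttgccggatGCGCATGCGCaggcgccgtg
NDUFB4, chr3:120596167-120596196, plus strand: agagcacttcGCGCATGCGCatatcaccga
SDHD, chr11:112086753-112086782, plus strand: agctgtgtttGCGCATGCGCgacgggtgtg

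The ETS core is shown for 5 genes that held it and whose values by library are given below, where capitals read CCGGAAG or, when the match lies on the other strand, CTTCCGG.
COX6A1, chr12:120438086-120438115, plus strand: ttccacttccgCTTCCGGcgctgcggcagt
COX5B, chr2:97646046-97646075, plus strand: gcagcttgttcCCGGAAGttttgctgctag
NDUFA13, chr19:19516204-19516233, plus strand: tccgcccgggaCCGGAAGtgtgggatactg
NDUFB7, chr19:14572072-14572101, minus strand: gcctaaatgacCCGGAAGctgtgtctgact
ATP5I, chr4:674255-674284, minus strand: tgcaggttgtgCTTCCGGtgcggaggtcag

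The YY1 word, which holds an ATG, and the estrogen-related receptor word (TGACCTT when read on the other strand) are shown in 3 genes that return below.
SDHB, chr1:17054002-17054031, minus strand, YY1: tcaggagccAAGATGGCGGCggtggtcgcc
UQCRC1, chr3:48609603-48609632, minus strand, YY1: tgcagctggAAGATGGCGGCgtccgtggtc
NDUFS6, chr5:1801420-1801449, plus strand, estrogen-related receptor: ggcggcggcgaTGACCTTctgccggctgct

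The subunit genes were abundant, and their order was much the same in every library. The 82 genes together took 1.255% of all reads in control siRNA (exact 95% interval 1.252 to 1.258), 1.218% in DDX3X siRNA (1.216 to 1.220), 1.257% in GFP (1.254 to 1.260), 1.202% in WT (1.199 to 1.205), 1.137% in T275M (1.134 to 1.140) and 1.134% in G302V (1.131 to 1.137). The mutant libraries had the smallest shares. Over the 74 genes that name a subunit, complex IV had the highest median level in every library, between 243 and 319 RPKM, and complex V the next, between 198 and 227 RPKM. Complex I (93.3 to 107 RPKM), complex III (90.2 to 106) and complex II (83.2 to 93.2) lay lower. With the pseudogene UQCRBP1 and the copy UQCRHL counted in, complex III was at 73.7 to 84.6 RPKM instead. In the values that follow, libraries are always in the order control siRNA, DDX3X siRNA, GFP, WT, T275M and G302V.

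In complex V the most abundant mRNA was ATP5B, the catalytic beta subunit (chr12:57031959-57039768 in GRCh37), at 747, 722, 751, 715, 674 and 674 RPKM. The mutant libraries were the lowest of the 6. ATP5G2, a gene for the c-ring subunit, averaged 377 RPKM and ATP5J2, a membrane subunit, 337 RPKM. The lowest were ATP5S (5.90 RPKM) and ATP5EP2 (5.55 RPKM), neither of which names a subunit. In complex IV, COX7C was highest at 694, 674, 705, 717, 679 and 644 RPKM. COX6A1 (mean 369 RPKM) and COX4I1 (mean 363 RPKM) followed, and COX7A2L (61.6 RPKM) and COX4NB (26.9 RPKM) were lowest. In complex III, UQCRH, the hinge protein, stood at 483, 445.0, 493, 494, 467 and 452 RPKM, above the core proteins UQCRC2 (mean 170.3 RPKM) and UQCRC1 (157 RPKM). UQCRB (38.0 RPKM) was the lowest gene of complex III that names a subunit.

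Complex I ran from NDUFS5 (mean 289 RPKM), NDUFA13 (283 RPKM) and NDUFB10 (264 RPKM) down to NDUFV3 (33.2 RPKM) and NDUFA10 (18.7 RPKM). All 3 at the top are accessory subunits. NDUFA10, also an accessory subunit, was at 20.0, 18.4, 19.0, 18.3, 18.7 and 18.0 RPKM. In complex II, the iron-sulfur subunit SDHB was highest at 161, 144, 152, 153, 143 and 143 RPKM. The flavoprotein SDHA was at 104, 108, 94.8, 89.6, 93.8 and 93.0 RPKM, so its siRNA values lay above every plasmid value. The membrane anchors SDHD (73.4 to 81.3 RPKM) and SDHC (57.5 to 65.3 RPKM) were lower.

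**Figure D1:**
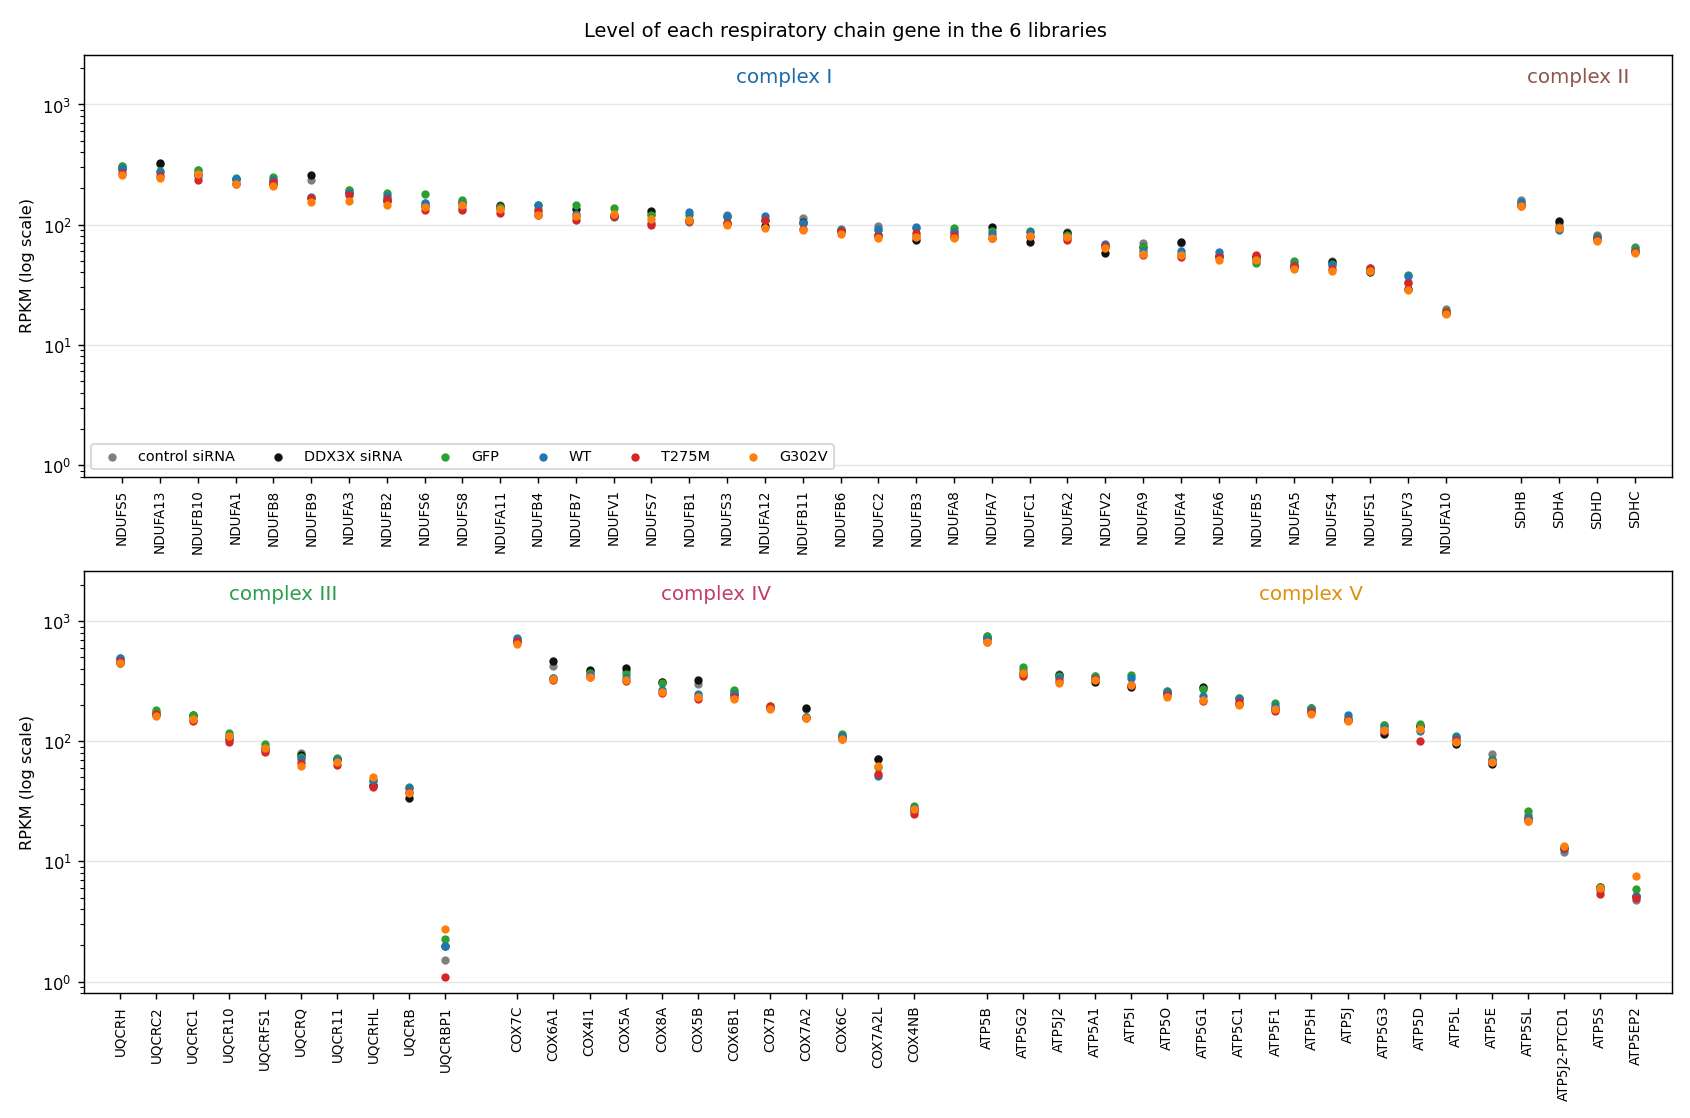
Level of 81 of the 82 respiratory chain genes, in RPKM on a log axis, with genes on the horizontal axis ordered by mean within each complex and 1 point for each of the 6 libraries. Most points of a gene overlap, and the spread between genes, from 1.92 RPKM for UQCRBP1 to 714 RPKM for ATP5B, is far wider than the spread between libraries.

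The isoforms known from heart, muscle, lung or testis were at or near 0. COX4I2 and COX6A2 had at most 1 read in any library and COX7B2 had 0 reads in all 6, where a count of 0 allows up to 3 reads, or 0.126 RPKM for COX7B2 in the shallowest library. COX8C had 0 to 4 reads and COX7A1 2 to 13 reads. COX6B2 (21 to 70 reads, at most 0.48 RPKM) and NDUFA4L2, a paralog known to be induced by hypoxia (16 to 37 reads, at most 0.50 RPKM) lay just under the limit of 1 RPKM. NDUFC2-KCTD14 and ATP5L2 complete the 9 genes left out. The member nearest above the limit was UQCRBP1, whose highest value was 2.73 RPKM, and the next, ATP5S and ATP5EP2, were well clear of it, at 5.31 to 6.14 and 4.79 to 7.52 RPKM. The ubiquitous isoforms carried the families: COX4I1, COX6A1, COX6B1, COX7B and COX8A each made up at least 99.79% of their family's RPKM. Among the 3 genes for the c-ring of the ATP synthase, whose mature proteins are the same, ATP5G2 gave 47.8 to 51.9% of the summed RPKM, ATP5G1 30.8 to 37.2% and ATP5G3 15.0 to 17.7%. The highest share of ATP5G1 and the lowest of ATP5G3 were both in DDX3X siRNA.

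Over the 6 libraries the respiratory chain genes varied little. The range of a gene, its highest minus its lowest log2(RPKM + 1), had a median of 0.26 over the 82 genes, against 0.38 over 13166 genes that reached 1 RPKM. Abundant genes vary less in counting, so the 1887 genes with a mean of 50 RPKM or more are the nearer comparison: their median was 0.31, and that of the 69 respiratory chain genes among them 0.26. In 61 of 82 genes the range was under 0.32, or 25% (74.4%, against 37.2% of all genes and 52.3% of those at 50 RPKM or more). COX7B, a small complex IV subunit, had the narrowest range, 0.087, at 194, 191, 197, 191, 197 and 185 RPKM. NDUFS1, the largest core subunit of complex I, followed with 0.12 (40.0 to 43.5 RPKM), and NDUFA10 with 0.14. The widest were UQCRBP1 (0.84), NDUFB9 (0.75) and ATP5EP2 (0.56). By complex, the median range was 0.17 in complex II, 0.23 in complexes III and V, 0.26 in complex IV and 0.28 in complex I.

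**Figure D2:**
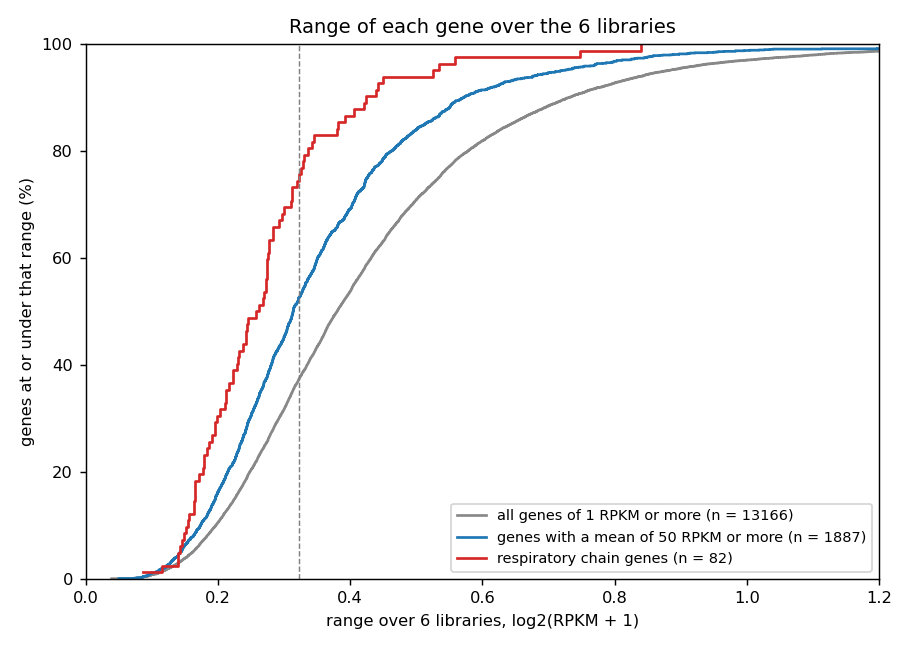
Cumulative share of genes, in percent, against the range over the 6 libraries on the log2(RPKM + 1) scale, for all 13166 genes of 1 RPKM or more, the 1887 genes with a mean of 50 RPKM or more and the 82 respiratory chain genes. The dashed line marks 0.32, or 25%, at or under which 74.4% of the respiratory chain genes lie, against 37.2% and 52.3% of the others.

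The first comparison asks what loss of DDX3X does. All differences below are of log2(RPKM + 1), first library minus second, and a gene is counted as higher or lower when the difference reaches 0.32, which is a ratio of 25% more. With DDX3X siRNA the respiratory chain genes stayed near their control level: their median difference was -0.039, against -0.024 for all 12694 genes tested, and with libraries scaled by the median ratio of all genes it turned to 0.035. No member was counted as lower or as higher (background 7.59% lower and 7.52% higher). Below 0 lay 54 of 82, against 54.5% of all genes, and 30 after that scaling, against 42.4%. The median was -0.065 in complex I, -0.084 in complex II, -0.044 in complex III, 0.029 in complex IV and -0.027 in complex V, and 8 of the 12 genes of complex IV lay above 0. After median-ratio scaling the medians were 0.0072, -0.011, 0.029, 0.10 and 0.046, so the signs turned in complexes I, III and V while complex IV still had the highest median. The counting interval was wholly below 0 in 41 members (background 40.1%) and wholly above it in 18 (background 32.8%).

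The largest positive difference was that of NDUFA7, an accessory subunit of complex I, at 77.9 RPKM in control siRNA and 96.5 in DDX3X siRNA (0.31, interval 0.25 to 0.36). NDUFB7, another accessory subunit, was at 117 and 135 RPKM (0.20, 0.15 to 0.25). On the low side were ATP5E, the epsilon subunit of the ATP synthase, at 77.9 and 64.3 RPKM (-0.27, -0.39 to -0.15), ATP5G3 at 136 and 115 RPKM (-0.24, -0.26 to -0.22) and NDUFS3, a core subunit of complex I, at 121 and 102 RPKM (-0.24, -0.28 to -0.20). These differences are outside the counting interval but below the limit of 0.32. All 5 genes of the catalytic head and central stalk of the ATP synthase lay below 0 (background 54.5%), with a median of -0.14, but 2 of the 5 were above 0 after median-ratio scaling. The 4 genes of its peripheral stalk had a median of 0.0015.

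The next 3 comparisons set each DDX3X construct against GFP and share that 1 GFP library, so a GFP value that stands apart moves all of them. With WT, the members had a median of -0.057 while the median of all 12915 genes was 0.055. Below 0 were 64 of 82 members (background 37.9%), and at 50 RPKM or more 52 of 69 members (background 71.5%). None of the 82 reached 0.32 in either direction (background 1.5% lower and 9.6% higher). The lowest were NDUFS6 at 180.3 RPKM in GFP and 151 in WT (-0.25, -0.31 to -0.20), NDUFB7 at 146 and 124 (-0.24, -0.30 to -0.18) and COX7A2L at 61.1 and 51.8 (-0.23, -0.30 to -0.17). NDUFS6 and NDUFB7 are accessory subunits of complex I, and COX7A2L is known as a factor of respiratory supercomplexes. On the high side were NDUFA6 and NDUFA12, both accessory subunits of complex I, at 0.10 each, and ATP5J, of the peripheral stalk of the ATP synthase, at 0.089. The counting interval was wholly below 0 in 44 members (background 21.3%) and above it in 7 (background 41.1%). Scaling by the median ratio moved the median to -0.15 and put 3 of 82 members at 0.32 lower or more, against 3.69% of all genes.

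With T275M, 80 of 82 members lay below GFP, against 37.8% of all 12912 genes. At 50 RPKM or more it was 68 of 69 members, against 81.0% of the genes at that level. The median of the 82 members was -0.15 and that of all genes 0.070. Counted as lower were 4 members (background 3.08%) and as higher 0 (background 12.5%). After median-ratio scaling 12 were lower and 0 higher, against 7.19% and 7.79% of all genes. The counting interval was wholly below 0 in 67 members (background 23.4%) and above it in 2 (background 44.2%). The 4 counted as lower were the pseudogene UQCRBP1 (-0.65, -0.95 to -0.33), ATP5D, NDUFS6 and NDUFB7. ATP5D, the delta subunit of the central stalk of the ATP synthase, was at 134, 133, 138, 122, 101 and 125 RPKM (-0.45, -0.51 to -0.39). The T275M library was the lowest of the 6. NDUFS6 was at 152, 143, 180.3, 151, 133 and 139 RPKM (-0.44, -0.50 to -0.38). NDUFB7 was at 117, 135, 146, 124, 109 and 119 RPKM (-0.42, -0.49 to -0.36). For both, GFP was the highest and T275M the lowest library, and T275M was nearer to control siRNA than to GFP. Above 0 were NDUFB5, a membrane-arm accessory subunit, at 48.2 RPKM in GFP and 55.5 in T275M (0.20, 0.12 to 0.27), and NDUFS1 (0.083, 0.037 to 0.13). COX7B was at -0.00097. The median was -0.16 in complex I, -0.076 in complex II, -0.18 in complex III, -0.13 in complex IV and -0.16 in complex V.

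With G302V, 75 of 82 members lay below GFP, against 45.2% of all 12775 genes, with a median of -0.15 against 0.025. At 50 RPKM or more 67 of 69 members lay below GFP, against 82.2% of the genes at that level. Counted as lower were 3 (background 3.18%) and as higher 0 (background 8.55%). After scaling 8 were lower and 0 higher, against 4.67% and 6.73% of all genes. In 66 members the counting interval was wholly below 0 (background 26.3%) and in 0 wholly above it (background 35.1%). The 3 counted as lower were all of complex I: NDUFV3, an accessory subunit of the NADH-oxidising module, at 33.5, 29.1, 37.8, 37.2, 32.6 and 28.8 RPKM (-0.38, -0.48 to -0.29), NDUFS6 (-0.37, -0.43 to -0.31) and NDUFB2, at 183 RPKM in GFP and 145 in G302V (-0.33, -0.39 to -0.27). NDUFV3 was about as low in DDX3X siRNA as in G302V, and highest in GFP and WT. With its 2 rows summed, NDUFV3 in G302V was at -0.31 against GFP and -0.29 against WT, under the limit in both. The genes on the high side were ATP5EP2 (0.32, -0.012 to 0.64), UQCRBP1 (0.19) and UQCRHL (0.082). Each of these 3 intervals reached 0. By complex the medians were -0.18 in complex I, -0.089 in complex II, -0.12 in complex III, -0.099 in complex IV and -0.16 in complex V. Complex II had the smallest difference with either mutant, over 4 genes only.

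Against WT, the members again lay low. DDX3X itself was at 2894 RPKM in WT, 3279 in T275M and 1906 in G302V, so mutation and amount differ together and cannot be told apart. T275M had 75 of 82 members below WT (background 48.6%), and at 50 RPKM or more 64 of 69 members (background 72.9%). The median of the 82 was -0.088 against 0.0046 for all 12973 genes. Counted as lower was 1 gene, UQCRBP1 (background 1.24% lower and 1.03% higher). The counting interval was below 0 in 58 members (background 20.5%) and above it in 2 (background 24%). Among subunits the lowest were ATP5D (-0.27, -0.33 to -0.21) and NDUFB1 at 127 RPKM in WT and 108 in T275M (-0.23, -0.31 to -0.15). The highest were NDUFB5 (0.11), SDHA (0.065) and ATP5J2-PTCD1 (0.050). G302V had 65 of 82 members below WT (background 57.4%), and at 50 RPKM or more 57 of 69 members (background 65.6%). The median of the 82 was -0.084 against -0.034 for all genes. For G302V the counting interval was below 0 in 55 members (background 35.8%) and above it in 7 (background 26.2%). Counted as lower were NDUFV3 (-0.36, -0.46 to -0.27) and NDUFA12, an accessory subunit of complex I, at 117 and 93.3 RPKM (-0.33, -0.40 to -0.25; background 7.23%). NDUFB4 followed with 146 and 120.2 RPKM (-0.27). Counted as higher were ATP5EP2 (0.48, 0.15 to 0.80) and UQCRBP1 (0.32, 0.028 to 0.61; background 3.59%), and COX7A2L was at 51.8 and 62.5 RPKM (0.27, 0.20 to 0.33). After median-ratio scaling 0 were lower and 2 higher in G302V against WT, against 5.32% and 5.37% of all genes. The median of the members was then -0.032, and 56 of 82 lay below 0, against 47.7% of all genes. In complex I the 29 accessory subunits other than NDUFA4 had a median of -0.16 in G302V and the 7 core subunits -0.082. In T275M these medians were -0.11 and -0.041. Against GFP the order differed by construct. There the accessory and core medians were -0.19 and -0.12 in G302V, -0.16 and -0.17 in T275M, and -0.022 and -0.058 in WT.

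**Figure D3:**
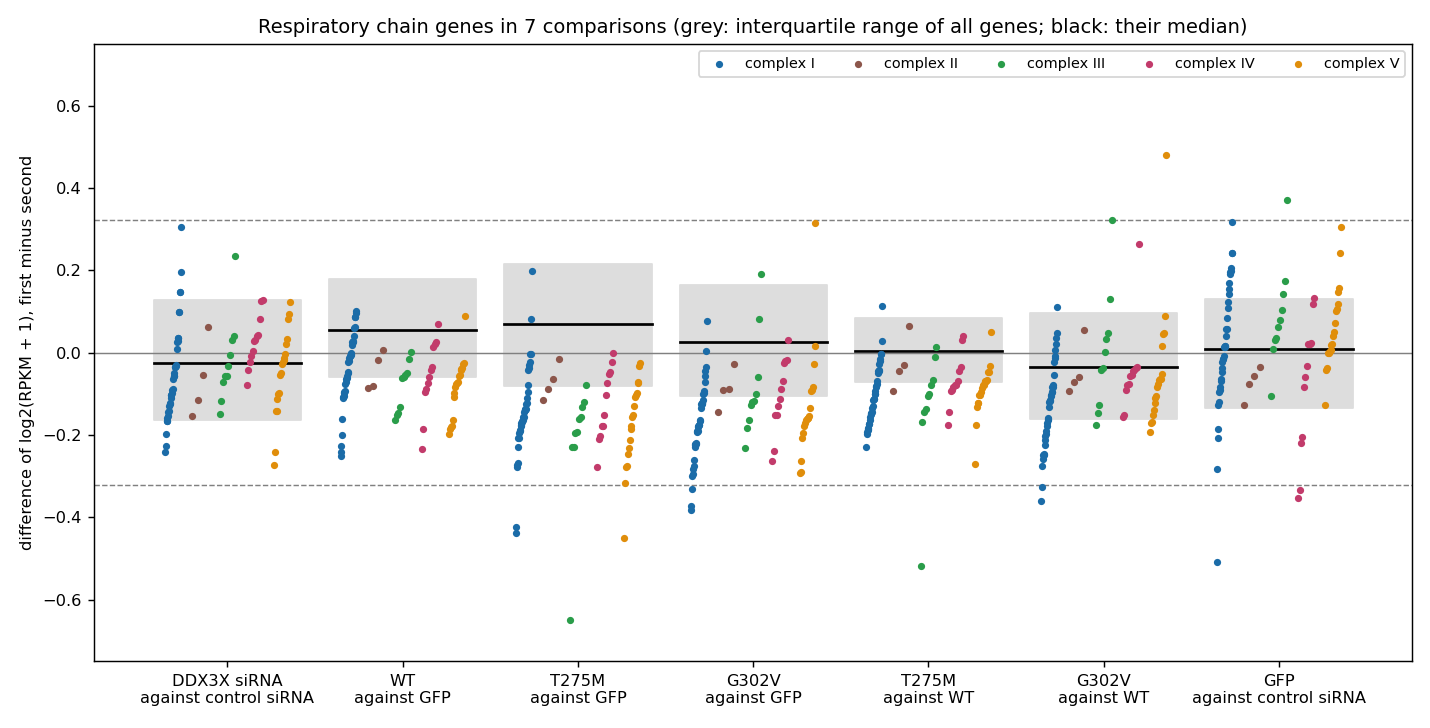
Difference of log2(RPKM + 1), first library minus second, of the 82 respiratory chain genes in 7 comparisons, 1 point a gene and coloured by complex. The grey box is the interquartile range of all genes tested, the black line their median and the dashed lines 0.32 either way; in T275M against GFP 80 of 82 points lie below 0.

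Most members are short and abundant mRNAs, and all mRNAs of that kind, members included, differed by about as much. Their rows had a median length of 805 bases against 2643.5 bases for all genes of 1 RPKM or more. Among the 527 genes of 50 RPKM or more whose rows were under 1000 bases, 46 of which are members, the median of T275M against GFP was -0.16 and that of the members -0.15. For G302V both medians were -0.16. WT against GFP gave -0.058 for the class and -0.055 for its members, T275M against WT gave -0.098 and -0.094, and G302V against WT gave -0.11 and -0.12. Within this class the members thus lay close to all its genes, a set that includes them. Below GFP lay 46 of 46 members of the class in T275M and in G302V, against 87.5% and 89.6% of all its genes. Matched on level or length alone, the distance varied. At 50 RPKM or more, all genes had -0.13 and members -0.15, both in T275M and in G302V against GFP. Among rows from 1000 bases to under 3 kb, 28 members had a median of -0.16 in T275M and -0.15 in G302V against GFP. All genes of that length, not matched for level, had 0.028 and -0.027. Among means of 10 to 49 RPKM, not matched for length, 10 members had -0.12 in T275M against GFP and all genes 0.039. DDX3X itself took 1.56% of reads in WT, 1.77% in T275M and 1.03% in G302V, which lowers every other gene by 0.023, 0.026 and 0.015 on the log2 scale. RNA quality was not given in the sources used here, and the part of library make-up in these differences was not tested.

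**Figure D4:**
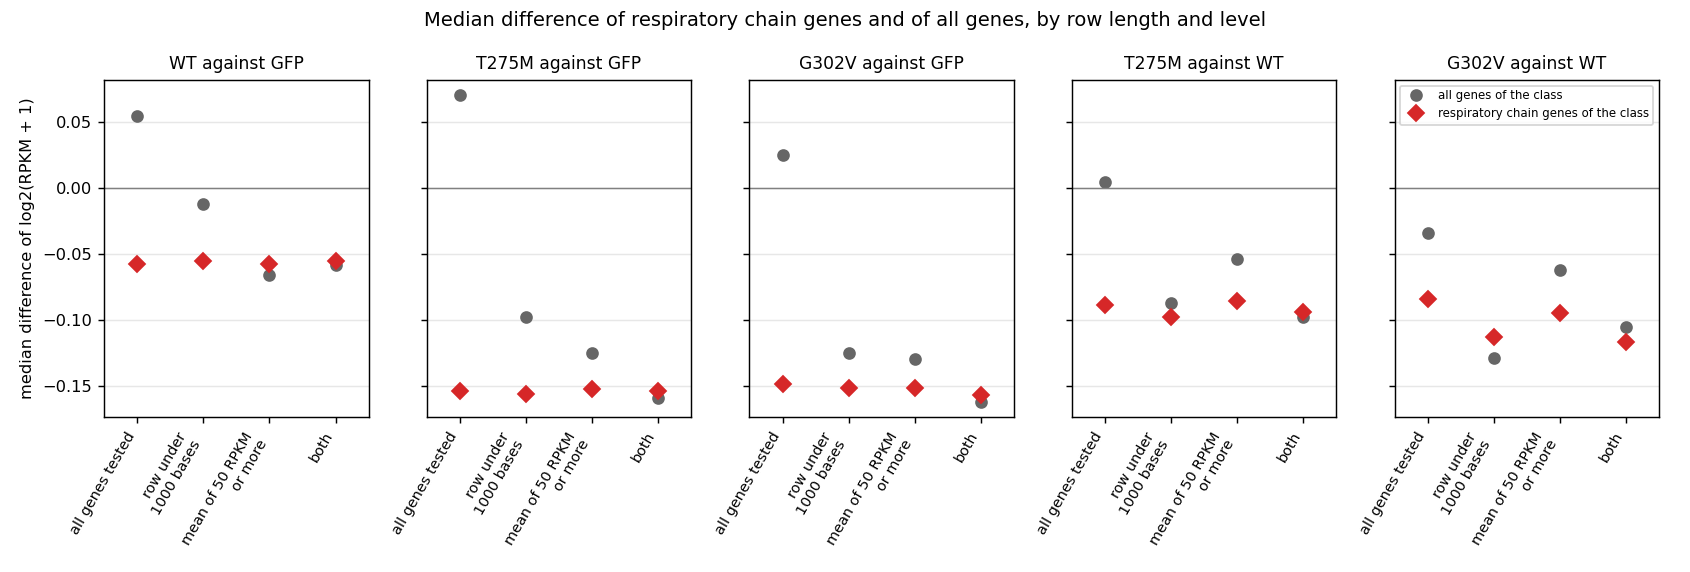
Median difference of log2(RPKM + 1) in 5 comparisons of plasmid libraries, for all genes of a class (grey circles) and for the respiratory chain genes of that class (red diamonds), the classes being all genes tested, rows under 1000 bases, means of 50 RPKM or more, and both. The circle falls from 0.070 for all genes to -0.16 for short and abundant ones in T275M against GFP, while the diamond stays near -0.15.

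Over the 4 plasmid libraries, both mutants lay below both GFP and WT in 60 of 82 members, against 19.5% of all genes and 50% of genes at 50 RPKM or more, where it was 54 of 69 members. After median-ratio scaling the count was 56 of 82 (20.6% of all genes), and 50 of 69 at 50 RPKM or more (45.3%). In 0 of 82 both mutants lay above GFP and WT (background 23.8%), and in 0 of 69 at 50 RPKM or more (background 6.2%). After scaling it was 1 of 82 (21.6% of all genes) and 1 of 69 at 50 RPKM or more (3.97%). By complex the 60 were 29 of 37 in complex I, 3 of 4 in complex II, 4 of 10 in complex III, 10 of 12 in complex IV and 14 of 19 in complex V. The widest gaps between the higher mutant and the lower of GFP and WT were 0.19 in NDUFV3, 0.18 in ATP5I and 0.17 in NDUFB11, NDUFB4 and NDUFS3. ATP5I, the membrane subunit e of the ATP synthase, was at 290.1, 285, 359, 335, 296 and 293 RPKM. Its mutant values lay beside those of the siRNA libraries, and GFP and WT above.

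The siRNA libraries and the plasmid libraries were apart in fewer members, though the widest gaps were larger. In 21 of 82 members both siRNA libraries lay above all 4 plasmid libraries (background 14.5%, and 17.4% of genes at 50 RPKM or more, where it was 20 of 69). In 2, ATP5I and NDUFC1, both lay below (background 22.6%, and 11.8% at 50 RPKM or more, where it was 2 of 69). After median-ratio scaling 25 lay above (background 18.9%) and 0 below (background 15.9%). At 50 RPKM or more these were then 22 and 0 of 69 (background 21.5% and 5.62%). To the 21 before scaling complex IV contributed 7 of its 12 genes, complex I 9 of 37, complex II 2 of 4, complex III 1 of 10 and complex V 2 of 19. NDUFB9, an accessory subunit of the membrane arm of complex I (chr8:125551342-125592889 in GRCh37), was at 236, 261, 166, 170.3, 165 and 155.2 RPKM. The smallest gap between the sets was 0.47. COX6A1 was at 426, 465, 334, 339, 323 and 329 RPKM with a gap of 0.33, and COX5B at 299, 326, 237, 249, 225 and 234 RPKM with a gap of 0.26. Both are nuclear subunits of complex IV. NDUFA4, named for complex I and now placed in complex IV, was at 70.0, 71.3, 57.3, 59.8, 53.6 and 55.9 RPKM with a gap of 0.22. The other genes with gaps over 0.1 were NDUFA13 and COX7A2 (0.21 each), COX7A2L (0.17) and SDHA (0.13). NDUFA13 was at 320.0, 328, 277, 276, 252 and 245 RPKM.

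Between the control libraries, GFP minus control siRNA, the members had a median of 0.018 against 0.0093 for all 12730 genes, and 34 of 82 lay below 0 (background 48.1%), with the counting interval below 0 in 22 (background 31.3%) and above it in 30 (background 33.2%). Counted as lower were NDUFB9 (-0.51, -0.55 to -0.46), COX6A1 (-0.35, -0.39 to -0.32) and COX5B (-0.33, -0.38 to -0.29; background 8.41%). UQCRBP1 was counted as higher (0.37; background 5.73%), with NDUFB7 (0.32) and ATP5I (0.31) just under the limit. At a ratio of 1.5, UQCRBP1 in T275M against GFP was the 1 member past the limit in any of the 7 comparisons, where the background was 2% for DDX3X siRNA, 2.21% for WT, 2.64% for T275M and 1.77% for G302V against GFP, 0.347% for T275M and 1.76% for G302V against WT, and 2.33% for GFP against control siRNA. Past 0.32 either way the same backgrounds were 15.1%, 11.1%, 15.6%, 11.7%, 2.27%, 10.8% and 14.1%. The largest difference of a subunit gene in any of the 7 comparisons, that of NDUFB9, was thus between libraries that both served as controls.

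**Figure D5:**
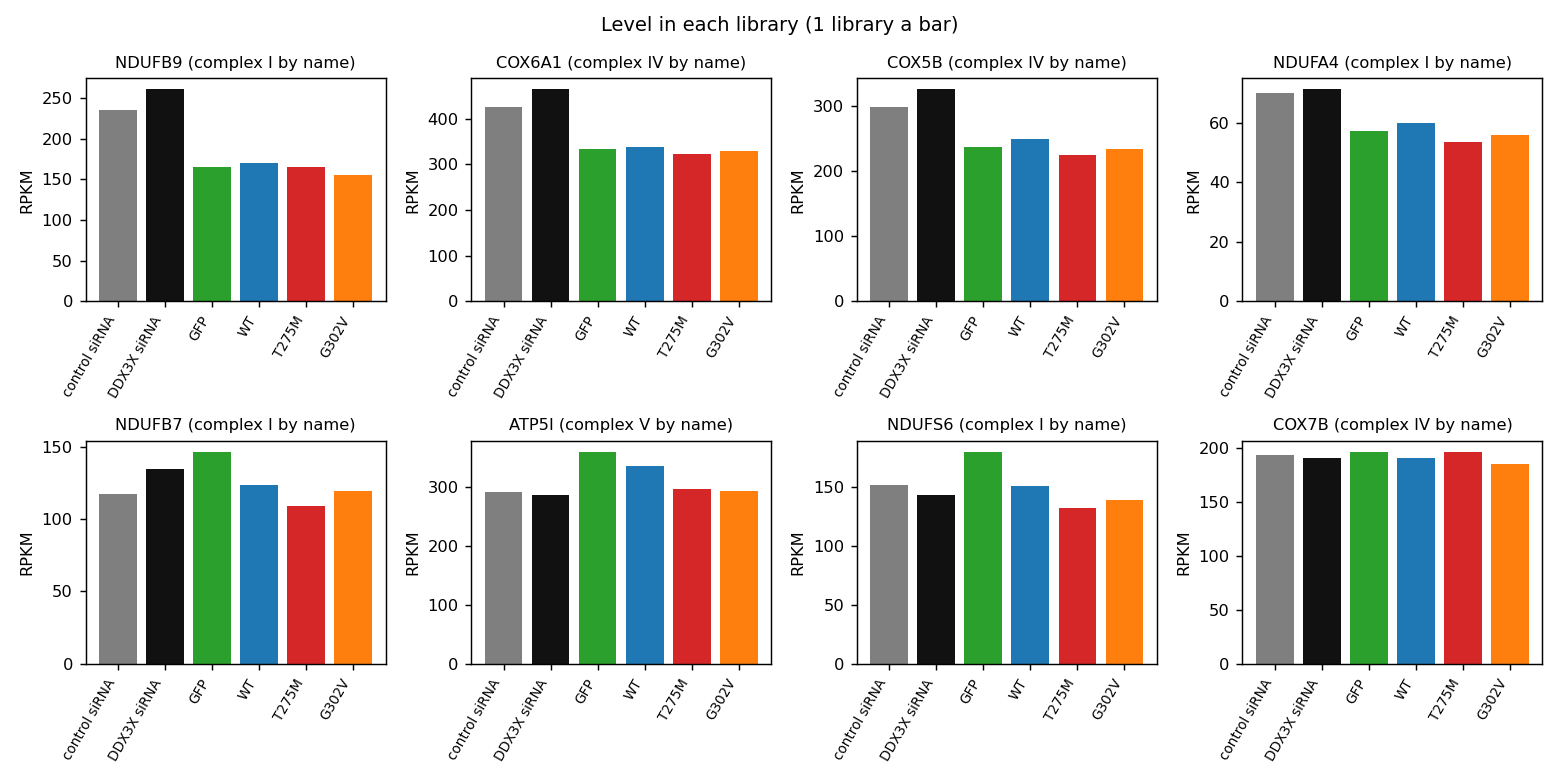
Level in RPKM of 8 respiratory chain genes in the 6 libraries, 1 library a bar, on axes that start at 0. NDUFB9, COX6A1, COX5B and NDUFA4 are higher in both siRNA libraries, NDUFB7, ATP5I and NDUFS6 are highest in GFP, and COX7B is nearly level.

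Genes that serve the same pathway without matching the names are given by lists. Of 37 assembly factors 33 were tested. Their median was -0.053 with DDX3X siRNA, -0.026 in WT, -0.098 in T275M and -0.091 in G302V, each of the last 3 against GFP, and 27 and 30 of 33 lay below 0 with the mutants (background 37.8% and 45.2%). With DDX3X siRNA 2 of 33 were counted as lower (background 7.59%), among them NUBPL, which delivers iron-sulfur clusters to complex I, at 8.91 and 5.48 RPKM (-0.61). The 5 listed genes that the name pattern misses had medians of -0.088 in WT, -0.14 in T275M and -0.17 in G302V against GFP. In T275M the lowest of them was CYC1, the cytochrome c1 of complex III (-0.31). The highest there was USMG5, of the ATP synthase (0.00033). CYC1 was at 212, 205, 231, 195, 186 and 202 RPKM, highest in GFP and lowest in T275M. The 16 genes of the tricarboxylic acid cycle had medians of -0.12 in T275M and -0.11 in G302V against GFP, and of -0.055 with DDX3X siRNA. Of 16 regulators of mitochondrial gene expression, 14 or 15 were tested, with medians of -0.0048 with DDX3X siRNA, -0.0082 in T275M and 0.0046 in G302V. TFAM, which packages mitochondrial DNA, ranged only from 55.2 to 61.3 RPKM. With DDX3X siRNA 2 of 14 regulators were counted as higher (background 7.52%) and 0 as lower (background 7.59%). The higher ones were PPARGC1B, a coactivator of mitochondrial genes, and ESRRA, an estrogen-related receptor. PPARGC1B, the highest of the list, was at 3.12 RPKM in control siRNA and 5.04 in DDX3X siRNA (0.55), and ESRRA at 25.5 and 34.2 RPKM. PPARGC1A, its better known relative, was near the limit of 1 RPKM, at 0.926, 0.636, 0.658, 1.49, 1.59 and 0.764 RPKM, with differences of 0.58 in WT and 0.64 in T275M against GFP and of -0.49 in G302V against WT. The 18 glycolysis genes tested had a median of -0.13 with DDX3X siRNA, with 2 lower and 1 higher (background 7.59% and 7.52%). In WT against GFP it was -0.14, with 1 lower and 0 higher (background 1.5% and 9.6%). There 15 of 18 lay below 0, against 37.9% of all genes and 71.5% of those at 50 RPKM or more. In T275M and G302V against GFP the glycolysis medians were -0.0081 and 0.0080. Counted as higher were 2 and 3 of 18 (background 12.5% and 8.55%) and as lower 0 (background 3.08% and 3.18%). SLC2A1, the glucose transporter, was at 21.2, 29.0, 14.6, 14.3, 21.2 and 22.4 RPKM, with GFP and WT the lowest.

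The 8 members that name no subunit need their own reading. UQCRBP1, a pseudogene of UQCRB, had 41 to 284 reads and the largest difference of any member in both comparisons of T275M, at 1.52, 1.97, 2.27, 1.98, 1.08 and 2.73 RPKM. UQCRHL is an intronless copy of UQCRH and ATP5EP2 a copy of ATP5E, so reads of each pair could be divided between near-identical sequences, and their values, those of ATP5E included, are uncertain. The row of ATP5E was 148 bases long. ATP5J2-PTCD1 is a readthrough transcript that shares exons with ATP5J2. COX4NB is an older symbol of a gene for the membrane complex of the endoplasmic reticulum, and ATP5S and ATP5SL are older symbols of assembly-related genes. Without these 8, T275M against WT had 0 members past 0.32 and G302V against WT had 2, NDUFV3 and NDUFA12.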

How the data were processed

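RNA-seq was made with 1 library in each of 6 groups of HEK293T cells. The authors trimmed reads with cutadapt, aligned them with BWA 0.5.5 to hg19, RefSeq, exon junctions and AceView, removed duplicates and deposited RPKM values per transcript row (the study's methods call them FPKM), 39618 rows in each table. Whole reads were recovered from the smallest step of the values (100% of 5595 to 6483 low rows checked in each library were whole within 0.1 of a read). Rows that share a symbol were reduced to the one with the highest mean RPKM. Groups followed the labels, and the study's plot legend names another mutant in place of T275M.

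Differences are of log2(RPKM + 1), a pseudocount of 1, which understates changes of low genes. A gene was tested when it had 1 RPKM and 10 reads in either library. Intervals are exact binomial at 95% on recovered reads and cover counting error only; a count of 0 allows 3 reads. With 1 library in each group, no test across genes was made. Gene positions came from GENCODE v44 lifted to GRCh37. Alternatives were pseudocounts of 0.1 and 10, no filter, median-ratio scaling, the sum of rows, removal of a trend on row length and GC (GC known for 98.3% of genes and all members) and a fold of 1.5. Members named are, in each complex, the 3 highest and 2 lowest in level, and all of complex II. Also named are the 3 largest differences each way in each comparison, the isoform families and the 3 widest and 3 narrowest ranges. Members at the 1 RPKM limit are named too. Genes named for the order of libraries were picked after their values were seen. So were CYC1, USMG5, NUBPL, TFAM, SLC2A1, PPARGC1A, PPARGC1B, ESRRA, NEFM and SNAP25. The members, lists and this rule were chosen with earlier results of these data known. The scripts were tested on simulated data. Python 3.11.15, numpy 2.4.6, pandas 2.3.3 and scipy 1.17.1 were used. The level of 1 member is not reported here.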

Additional observations from a re-analysis of the deposited data

How the results depend on the processing

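The counting margin here is the members' median distance from the middle of a counting interval to its end, 0.038 to 0.055 by comparison. The median of the members minus that of all genes moved by less than this margin in 46 of 56 alternative settings. It was -0.014 for DDX3X siRNA, and 0.082 with the length and GC trend removed and 0.046 among genes at 50 RPKM or more, a class added after seeing the data. With the trend removed it was -0.13 for T275M against GFP (from -0.22), -0.048 for G302V against GFP (from -0.17), -0.024 for T275M against WT (from -0.093) and 0.049 for G302V against WT (from -0.050). Among genes at 50 RPKM or more it was 0.0081 for WT against GFP (from -0.11), -0.027 for T275M against GFP, -0.022 for G302V against GFP and -0.031 for T275M against WT. Both alternatives compare members with genes more like them in length, GC or level. Median-ratio scaling shifts a whole comparison, by -0.092 for WT and -0.090 for T275M against GFP. With that shift ATP5J in WT against GFP went from 0.089 to -0.0020. NDUFS1 in T275M against GFP went from 0.083 to -0.0052.

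Counts of members past 0.32 either way were 0, 0, 4, 3, 1, 4 and 4 in the 7 comparisons, in the order of the plot of differences. They became 1, 3, 12, 8, 1, 2 and 4 with median-ratio scaling and 0, 0, 1, 0, 0, 0 and 0 at a ratio of 1.5. With the trend removed DDX3X siRNA had 2 and T275M against GFP 1, and with a pseudocount of 0.1 DDX3X siRNA had 1. With the rows of a symbol summed, G302V had 2 against GFP and 3 against WT. With a pseudocount of 10, G302V against GFP had 1, and both comparisons with WT had 0. Among genes at 50 RPKM or more, T275M against WT had 0 and G302V against WT 1. No paired analysis was possible because each group holds 1 library, and for the same reason no library could be left out. Depth limits the low rows: in a row of 1000 bases 3 reads were 0.0686 RPKM in G302V and 0.0166 RPKM in DDX3X siRNA.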
